A study of Mus musculus with 8 samples.

Results

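The cytoplasmic ribosomal protein genes encode the proteins of the small (Rps) and large (Rpl) ribosomal subunits. They were taken as protein-coding genes by symbol, with the stalk genes Rplp0, Rplp1 and Rplp2 and with Rpsa, and without the Rps6k kinases. The rule found 84 genes among the 55450 in the deposited table, and no measured value entered it. Of these, 81 passed the filter on low counts, 32 of the small and 49 of the large subunit. Rpl10l and Rpl39l, retrogene copies best known from testis, had 0 counts in all 8 libraries, which allows up to 0.0989 CPM (counts per 1e+06 counts of a library) in the shallowest library (3 counts, counting error only). Rpl3l, a muscle copy of Rpl3, had between 0 and 8 counts per library.

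Total RNA was sequenced from RAW264.7, a mouse macrophage line, in 8 libraries. The shDis3l2 cells carry a short hairpin RNA against Dis3l2 and the shNS cells a non-silencing hairpin, and both lines were kept for 4 days with or without 1 µg/mL doxycycline. The groups are shDis3l2 with doxycycline (3 libraries), shNS with doxycycline (3), shDis3l2 without doxycycline (1) and shNS without doxycycline (1). The labels do not say whether the replicates were separate cultures or whether each line is 1 clone. The p-values therefore weigh a difference only against the spread between these libraries, which may be technical. Dis3l2 is a cytoplasmic exonuclease that degrades RNAs with a uridine tail, and the question was what lowering it did to the RNA of these cells. Its mRNA was lower but not absent in shDis3l2 cells with doxycycline, and near level between the lines without it.

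Ribosomal proteins are made in matching amounts, and in macrophages as in other cells their mRNAs are among the most abundant. Vertebrate ribosomal protein mRNAs begin with a pyrimidine run, the 5′ terminal oligopyrimidine (TOP) motif, through which mTORC1 and LARP1 adjust their translation and stability together. Many of the genes also carry small nucleolar RNAs (snoRNAs), guides for ribosomal RNA modification, in their introns.

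The pyrimidine runs near the annotated starts are shown because the TOP motif described for this class is a feature of regulation and not of name. RefSeq start-site windows (GRCm38.p6) were found for 64 of the 84 genes, and the longest run of C or T opened by C was read on the gene's strand within 50 bases either side of the start. A run of at least 10 bases stood in 33 of the 64 (51.6%), against 14.4% of all 32851 start windows. Only the start nearest the annotated gene start was kept for each member. The 32851 windows hold every distinct start of each gene, so the shares count unlike units. In the 30-base stretches below, capitals mark the run. They come from the pair of genes called higher in shDis3l2 than in shNS cells with doxycycline, then 2 chromosome 9 members, 2 members that lay lowest and the abundant Rps6 and Rpl15.
Rps25: ccgggCTTCCTTTTTTTCCgacatcttagc
Rpl4: gcgtggCCTTCTCCTCTCCCCgtcatggtg
Rps27l: ctccaCTCCTCTCCactcctccccgccgcc
Rpsa: ttctcCCTTTTTgcttagcctgctttgcca
Rpl5: agccaCTCTTTCTCacgtcgcttgcgtgct
Rpl36a: gctctagCCTCTCTCTTTCCgagctgctag
Rps6: tcgggCCTCTTTTTCgtgacgcctcccagg
Rpl15: gaaagCCTTCTTCCTTTCCTCTggcggcag

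The stretches lie at chr9:44407687-44407716 (Rps25, plus strand), chr9:64173407-64173436 (Rpl4, plus), chr9:66946059-66946088 (Rps27l, plus), chr9:120127711-120127740 (Rpsa, plus), chr5:107900503-107900532 (Rpl5, plus), chrX:134585674-134585703 (Rpl36a, plus), chr4:86857344-86857373 (Rps6, minus) and chr14:18270966-18270995 (Rpl15, minus). The runs were 14 bases long in Rps25, 15 in Rpl4, 13 in Rpl36a, 17 in Rpl15 and 9 in Rpl5. Relative to the annotated start (negative is before it), they began at -22 in Rps25 and Rps27l, -50 in Rpsa and -20 in Rpl5. In Rpl4 the run began at 26, in Rpl36a at 27, in Rps6 at -1 and in Rpl15 at -4. A run shown here therefore need not be the TOP motif of the mRNA. Runs were also cut at the edge of the searched bases. In Rpsa the run starts at that edge, and the printed bases before it are also C or T. Its capitals thus mark only part of the stretch, which was counted as a run under 10 bases. With doxycycline the median log2 fold change (shDis3l2 over shNS) was 0.10 over the 33 genes with a run of at least 10 bases and 0.15 over the 28 tested genes with a shorter one. The 7-letter motif AAGATGG, or its complement CCATCTT, stood in 9 of the 64 windows of 300 bases (14.1%), against 6.34% of all windows. These are matches of letters, and no mapping of transcription starts was used here.

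Between about 30341800 and 45557800 fragments were assigned to genes in each library. All 11 macrophage markers reached at least 1 CPM in every library, and the markers of T, B, fibroblast, epithelial and erythroid cells summed to at most 0.23 CPM. Dis3l2 had 12, 13.5 and 14.9 CPM in shDis3l2 cells with doxycycline, against 33.0, 28.7 and 22 CPM in shNS cells with doxycycline, and it had 28.6 CPM in shDis3l2 cells against 29.7 CPM in shNS cells without it. Its log2 fold change with doxycycline was -1.05 ± 0.19 (SE, edgeR adjusted p = 0.0216). Leaving out any 1 of the shDis3l2 replicates took that adjusted p above 0.05, to at most 0.112, and with the replicate number as a block it was 0.0822.

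Some libraries stood apart. Replicate 2 of shNS with doxycycline was closer to the shNS library without doxycycline (r = 0.98 over log2 CPM) than to its own replicates 1 and 3 (both 0.94). Vim, the intermediate filament gene vimentin and itself a TOP mRNA, had 929, 54.9 and 1175 CPM in the 3 shNS libraries with doxycycline, against 40.2 CPM in the shNS library without it. The labels were kept, and whether that replicate 2 is mislabelled or mixed could not be decided. Replicate 1 of shDis3l2 with doxycycline was the deepest library and the highest in ribosomal protein mRNA. It had the largest share of mitochondrially encoded counts, 3.89%, against 2.87% and 2.65% in the other shDis3l2 replicates and 2.94 to 3.59% in shNS cells with doxycycline. The part of these library differences in the results was not tested.

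The ribosomal protein genes together took 4.64, 3.95 and 3.75% of all counts in shDis3l2 cells with doxycycline, against 3.42, 3.48 and 3.45% in shNS cells with doxycycline. Without doxycycline they took 4.15% in shDis3l2 cells and 3.36% in shNS cells. The mean share with doxycycline was 4.11 ± 0.47% in shDis3l2 cells and 3.45 ± 0.031% in shNS cells (SD, n = 3 each), and all 4 shDis3l2 libraries lay above all 4 shNS libraries. In bulk RNA a change in cell makeup and a change per cell cannot be told apart.

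The separation rested on the scale. After trimmed mean of M values (TMM) scaling, which corrects for library composition, the summed level was 48297, 38063 and 35718 CPM in shDis3l2 cells with doxycycline, against 32667, 36440 and 37189 CPM in shNS cells with doxycycline. These groups overlapped, since shDis3l2 replicate 3 lay below shNS replicates 2 and 3. Without doxycycline the sum was 40064 CPM in shDis3l2 cells and 33862 CPM in shNS cells. All levels and fold changes below are on the TMM scale unless another is named.

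**Figure D1:**
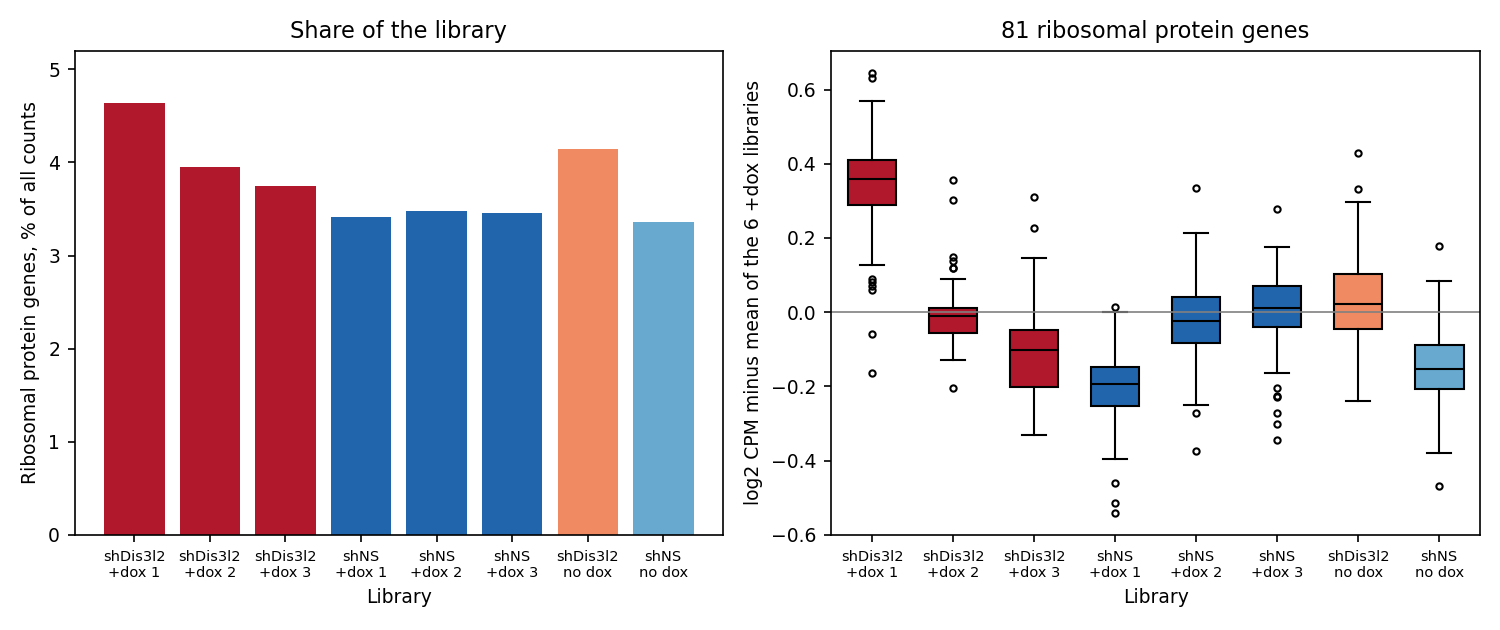
Left, the share of all counts held by the ribosomal protein genes in each library, as a percentage. Right, the log2 CPM of the 81 tested genes relative to each gene's mean over the 6 libraries with doxycycline, as boxes (quartiles, whiskers to 1.5 times the box height, circles beyond). The box of shDis3l2 replicate 1 sits highest, with a median of 0.36, and that of shNS replicate 1 lowest, with a median of -0.19.

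Member by member, 1 library carried most of the upward displacement. Relative to its mean over the 6 libraries with doxycycline, the median member stood at 0.36, -0.01 and -0.10 (log2) in shDis3l2 replicates 1 to 3, against -0.19, -0.02 and 0.01 in shNS replicates 1 to 3. Of the 81 members, 73 had their highest value in shDis3l2 replicate 1, where 23.2% of all tested genes had theirs, and 53 had their lowest in shNS replicate 1. The small and large subunits moved alike: their medians in shDis3l2 replicate 1 were 0.39 and 0.35, and in shNS replicate 1 they were -0.19 and -0.20. The members thus varied together between replicates of 1 line. Their median coefficient of variation was 17.8% in shDis3l2 cells and 8.96% in shNS cells.

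**Figure D2:**
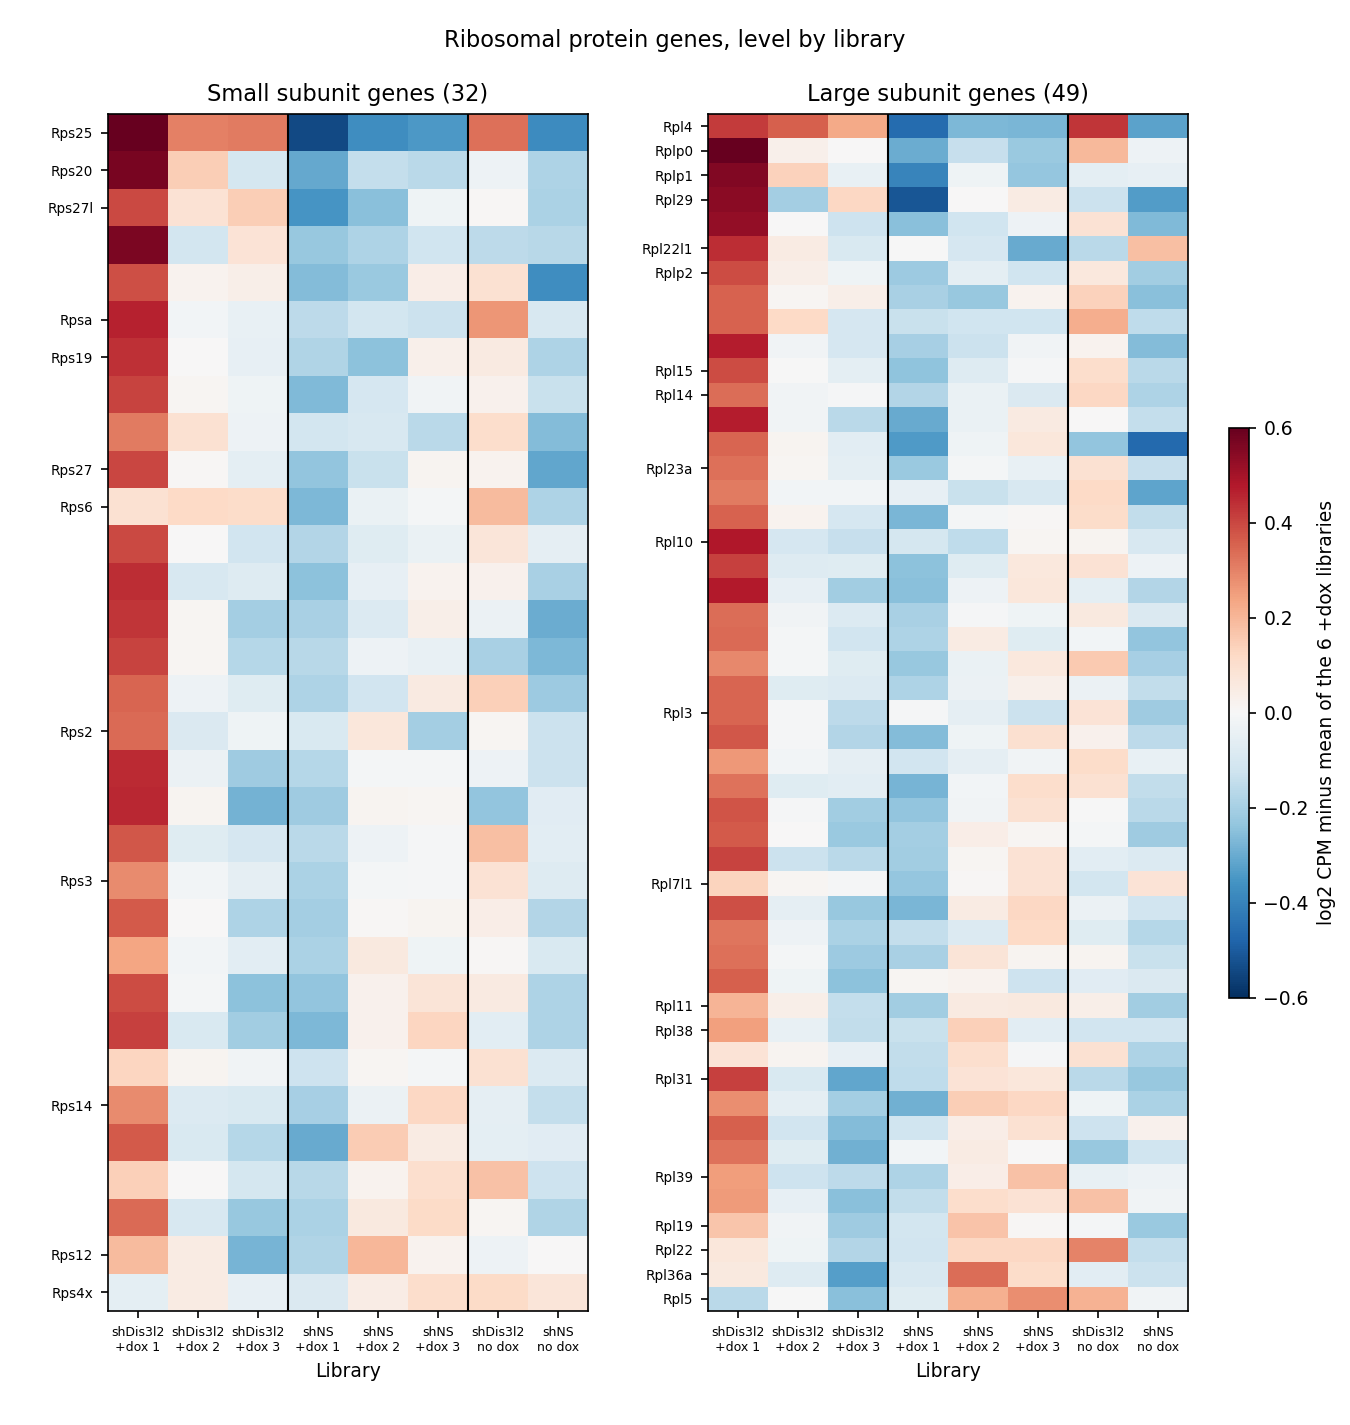
Each row is 1 of the 81 tested ribosomal protein genes and each column 1 library, and colour gives log2 CPM minus the mean of the 6 libraries with doxycycline, from blue (lower) to red (higher), cut at 0.6 either way. Names are given for some of the rows. Rows run by log2 fold change, with Rps25 and Rpl4 on top, and 73 of the 81 rows are highest in the first column.

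With doxycycline, 2 ribosomal protein genes were called higher in shDis3l2 than in shNS cells and none lower. The share called higher was near that of all genes. The edgeR quasi-likelihood test, adjusted over 13752 genes, called Rps25 and Rpl4 (2 of 81), where 2.13% of all genes were called higher. It called 0 of 81 lower, where 4.01% of all genes were called lower. At an unadjusted p under 0.05 it gave 3 members higher (8.8% of all genes) and 0 lower (12% of all genes). DESeq2 and limma-voom also called the same 2 genes higher and none lower. Of all 13752 genes, DESeq2 called 644 higher and 1105 lower, and limma-voom called 320 higher and 530 lower. The median log2 fold change was 0.15 over the 81 members and -0.00 over all genes, and 73 of the 81 were above 0, where 49.7% of all genes were. All values lay between -0.28 (Rpl5) and 0.85 (Rps25), and 64 of the 81 were within 1.2-fold of no change.

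Leaving out shDis3l2 replicate 1 moved the members' median to 0.01, with 43 of 81 above 0 and Rps25 the 1 member called. Leaving out shNS replicate 2, the library nearest to the one without doxycycline, left a median of 0.17 with 76 of 81 above 0. Over the 6 such omissions the median ran between 0.01 and 0.26. The approximate 95% interval of a member excluded a rise of 1.5-fold for 49 of the 81 and a fall of 1.5-fold for 79.

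In 15 of the 81 members the 3 shDis3l2 libraries all lay above the 3 shNS libraries, where 13.4% of all genes did, and in 0 they all lay below, where 14.4% did. Among them were Rps6, Rps20, Rps25, Rps27l and Rpsa of the small subunit, and Rpl4, Rpl14, Rplp0 and Rplp2 of the large one.

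Rps25, a small subunit protein that several viral internal ribosome entry sites need, moved most. It had 892, 704 and 707 CPM in shDis3l2 cells with doxycycline, against 392, 440 and 450 CPM in shNS cells with doxycycline. The groups were far apart, and the lowest shDis3l2 library was above the highest shNS library by more than the range within either line. The means were 768 ± 108 CPM and 427 ± 30.9 CPM (SD, n = 3 each), a 1.8-fold difference (log2 fold change 0.85 ± 0.15, SE, edgeR adjusted p = 0.0227). Without shDis3l2 replicate 2 the adjusted p was 0.0848 and without replicate 3 it was 0.0678, and with the replicate number as a block it was 0.0874. The gene lies at chr9:44407139-44410427 on the plus strand (GRCm38), where Trappc4 and Ccdc84 overlap it on the other strand at mean levels of 24.3 and 12 CPM. The kit keeps the strand, but no source used here states the strand setting of the counting.

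Rpl4, a large subunit protein whose loop lines the tunnel through which the new peptide leaves, was the other. It had 2084, 1994 and 1821 CPM in shDis3l2 cells with doxycycline, against 1132, 1290 and 1289 CPM in shNS cells with doxycycline. Again every shDis3l2 library lay above every shNS library. The means were 1966 ± 134 CPM and 1237 ± 91.0 CPM (SD, n = 3 each), a 1.59-fold difference (log2 fold change 0.67 ± 0.15, SE, edgeR adjusted p = 0.0419). This call was close to the threshold: leaving out any 1 library took the adjusted p above 0.05, between 0.0575 and 0.176, and it was 0.0513 with no low-count filter and 0.131 with the replicate block. Rpl4 lies at chr9:64173375-64178666 on the plus strand.

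**Figure D3:**
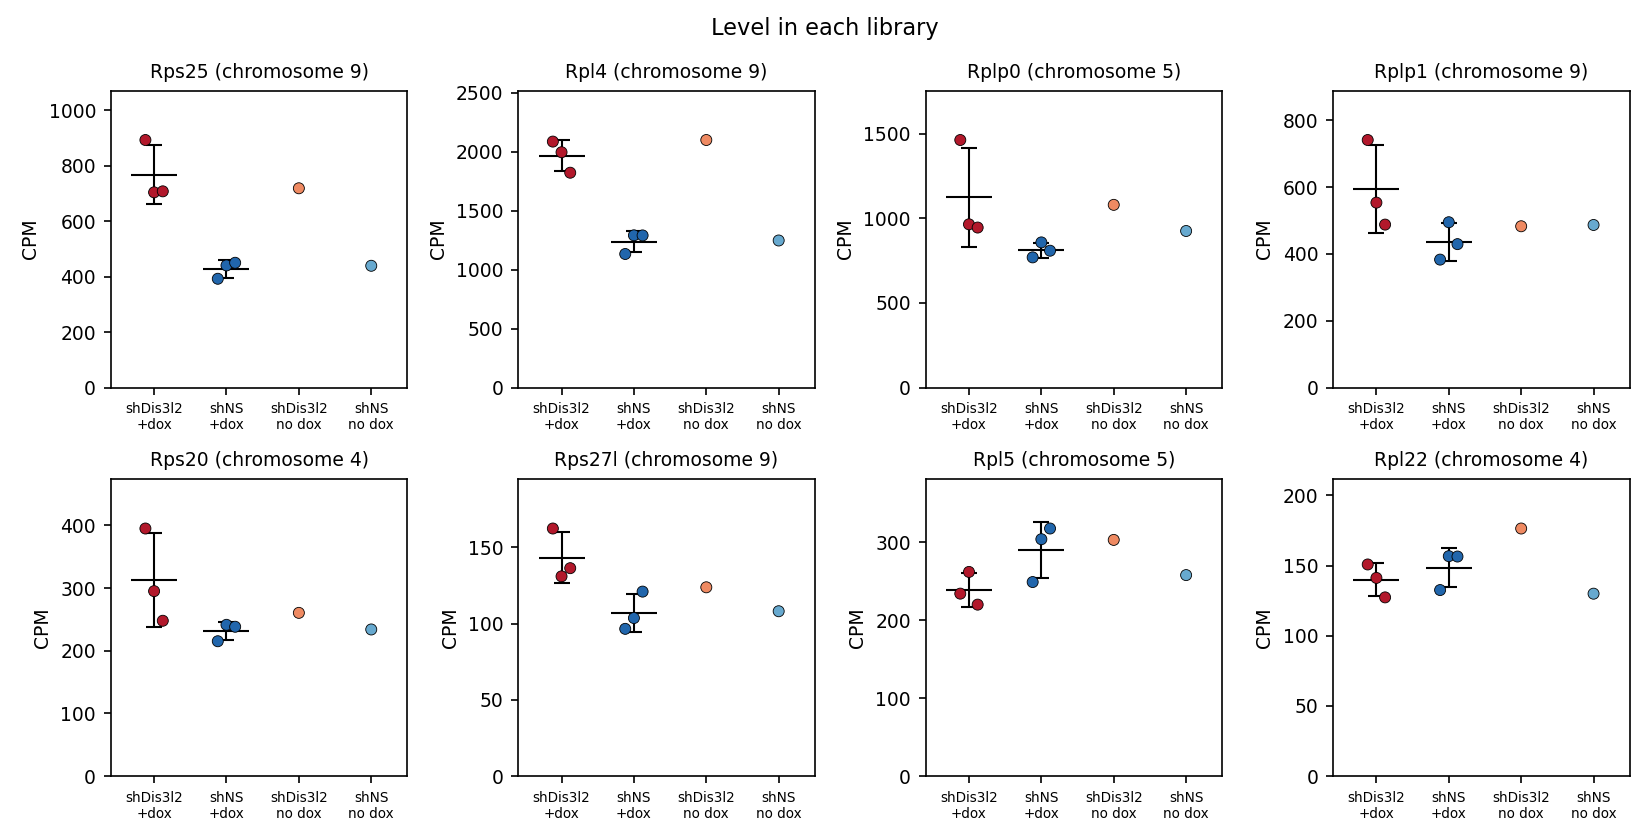
CPM of 8 ribosomal protein genes in each library, with shDis3l2 left of shNS, first with and then without doxycycline. Points are libraries, and the bars with caps are the mean and SD of the 3 libraries with doxycycline. Rps25 and Rpl4 are split by line both with and without doxycycline, while Rplp0 and Rps20 are high in 1 shDis3l2 library.

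The stalk genes encode the acidic arm of the large subunit that recruits the elongation factors. Rplp0, its base, had 1463, 965 and 945 CPM in shDis3l2 cells with doxycycline, against 769, 858 and 809 CPM in shNS cells with doxycycline. The groups did not overlap, but replicate 1 stood far above the rest, and the log2 fold change of 0.47 ± 0.20 (SE, edgeR adjusted p = 0.242) became 0.24 without it. Rplp1 had 741, 553 and 488 CPM in shDis3l2 cells against 383, 495 and 429 CPM in shNS cells (0.45 ± 0.20 on the log2 scale, edgeR adjusted p = 0.249). Here the groups overlapped, and without doxycycline the lines were level, at 483 CPM in shDis3l2 cells and 487 CPM in shNS cells. Rplp2 was at 0.28 ± 0.16 (edgeR adjusted p = 0.379). None of the 3 stalk genes passed the test.

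Rps20, a protein of the head of the small subunit, had 395, 295 and 248 CPM in shDis3l2 cells with doxycycline, against 215, 241 and 238 CPM in shNS cells with doxycycline. Its groups were apart by a narrow margin (log2 fold change 0.43 ± 0.19, edgeR adjusted p = 0.247), and without shDis3l2 replicate 1 the value was 0.23. Rps6, the substrate of the S6 kinases, was one of few members that replicate 1 did not lead: it had 927, 946 and 939 CPM in shDis3l2 cells with doxycycline, against 723, 846 and 863 CPM in shNS cells with doxycycline. Its spread within shDis3l2 cells was the smaller one, yet the difference of 0.21 ± 0.14 (edgeR adjusted p = 0.454) missed the threshold.

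The lowest members were Rpl5, Rpl36a and Rpl22. Rpl5, which with Rpl11 and 5S rRNA forms the particle that restrains Mdm2 when ribosome assembly fails, had 234, 262 and 220 CPM in shDis3l2 cells with doxycycline, against 249, 304 and 318 CPM in shNS cells with doxycycline. The groups overlapped (log2 fold change -0.28 ± 0.15, edgeR adjusted p = 0.349), and without doxycycline the order was the other way, with 303 CPM in shDis3l2 cells and 258 CPM in shNS cells. Its partner Rpl11 was at 0.07 ± 0.15 (edgeR adjusted p = 0.861). Rpl36a was at -0.23 ± 0.16 (adjusted p = 0.488) and Rpl22 at -0.09 ± 0.13 (adjusted p = 0.789), and the next 3, Rps4x, Rpl19 and Rps12, lay between -0.04 and -0.02.

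The paralog pairs gave no switch between copies that passed the test. Rpl22l1, which Rpl22 represses in mouse cells, had 61.4, 46.7 and 42.4 CPM in shDis3l2 cells with doxycycline, against 45.1, 42.2 and 36.6 CPM in shNS cells with doxycycline, and 40.3 CPM against 51.1 CPM without it. It was the highest of the members in the difference between the doxycycline effects of the lines, at 0.62 (log2), and Rpl22 the lowest, at -0.53. Both had an edgeR adjusted p of 1.00.

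Rps27l, a copy of Rps27 that p53 induces in human cells, had 162, 131 and 136 CPM in shDis3l2 cells with doxycycline, against 96.5, 104 and 121 CPM in shNS cells with doxycycline. The groups did not overlap, and the difference of 0.42 ± 0.15 (log2) had an edgeR adjusted p of 0.153. Rps27 itself was at 0.25 ± 0.17 (adjusted p = 0.467). Rpl7l1 was at 0.09 and its parent Rpl7 at 0.13, while Rpl36al was at 0.14 and its parent Rpl36a at -0.23. The parents of the copies that did not pass the filter were at 0.14 (Rpl3), 0.19 (Rpl10) and -0.01 (Rpl39).

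Members with a known role in disease or development were not called either. Rps19, in humans the gene most often mutated in Diamond-Blackfan anaemia, was at 0.27 ± 0.18 (edgeR adjusted p = 0.446). Rps14, whose human counterpart is lost in the 5q- syndrome, was at 0.08 ± 0.16 (adjusted p = 0.846), and Rpl38, which patterns the mouse skeleton through Hox mRNA translation, at 0.04 ± 0.15 (adjusted p = 0.921).

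Per kilobase of annotated transcript the members ranged widely. The highest mean levels over the 8 libraries were those of Rpsa (1276 CPM per kb), Rpl23a (1166), Rpl15 (1093) and Rpl4 (1053). Rpl4 had 1278 CPM per kb in shDis3l2 cells and 804 CPM per kb in shNS cells with doxycycline. Among these genes it thus ranked below Rpsa (1383) and above Rpl23a (1251) in shDis3l2 cells, and last in shNS cells. Rps25, not among them, stood between Rpsa and Rpl4 in shDis3l2 cells with doxycycline (1331 CPM per kb), and had 741 CPM per kb in shNS cells. Rpl29 (20.8 CPM per kb) and Rps2 (61.3) were lowest. Levels of members that share reads with pseudogenes are uncertain, Rps2 most of all.

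The pair of called genes lies on chromosome 9, with 5 other members. All 7 had a positive log2 fold change with doxycycline, with a median of 0.42, against 0.14 over the 74 members elsewhere, of which 0 were called by edgeR, DESeq2 or limma-voom and 0 had an unadjusted edgeR p under 0.05. Other genes nearby were called as well. Among the tested genes within 2 Mb that are no ribosomal protein genes, the median log2 fold change was 0.54 around Rps25 (55 genes, 11 called higher and 1 lower) and 0.55 around Rpl4 (39 genes, 9 higher and 0 lower). It was 0.72 around Rplp1 (14 genes, 4 higher) and 0.48 around Rps27l (33 genes, 5 higher and 1 lower). Some genes were counted around more than 1 of Rplp1, Rpl4 and Rps27l.

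The other 3 chromosome 9 members had no such surroundings: the median was 0.00 around Rpl29, -0.22 around Rpsa and -0.22 around Rpl14. Their own log2 fold changes were 0.32, 0.29 and 0.21. Without doxycycline the neighbours of Rps25, Rpl4, Rplp1 and Rps27l had median log2 ratios of 0.64, 0.56, 0.72 and 0.55. Over the whole of chromosome 9 the median was 0.15 with doxycycline and 0.18 without it. The part of these surroundings in the Rps25 and Rpl4 results was not tested.

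**Figure D4:**
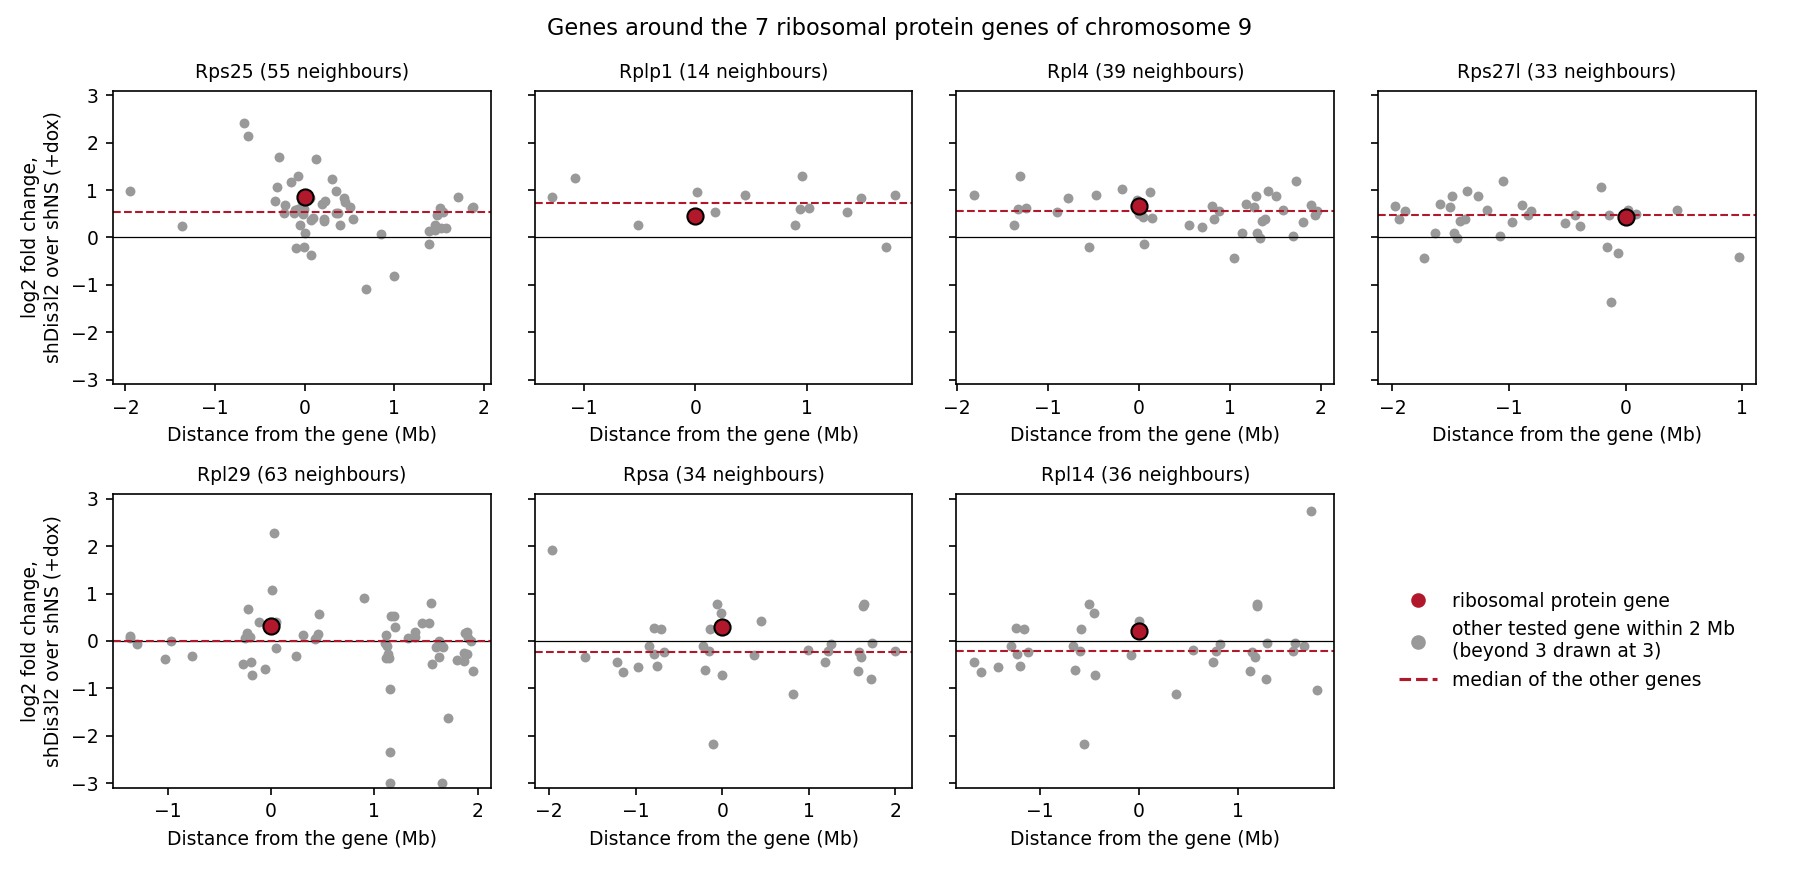
Log2 fold change (shDis3l2 over shNS, with doxycycline) of the 7 chromosome 9 ribosomal protein genes (red) and of the other tested genes within 2 Mb (grey), by distance in Mb from the member. The dashed line, the neighbours' median, lies at 0.48 to 0.72 around the upper 4 genes and at -0.22 to 0.00 around the lower 3.

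Without doxycycline, where each line has 1 library and no test was made, the same pair stood highest. Dis3l2 itself was near level there, at 28.6 CPM in shDis3l2 cells and 29.7 CPM in shNS cells. Rps25 had 718 CPM in shDis3l2 cells and 439 CPM in shNS cells, a ratio of 1.64 (95% interval 1.60 to 1.67, counting error only). Rpl4 had 2098 CPM in shDis3l2 cells and 1246 CPM in shNS cells, a ratio of 1.68 (1.66 to 1.70). These were the 2 of 81 members at least 1.5-fold higher, where 16.9% of all genes were, and 0 members were at least 1.5-fold lower, where 18.3% were. The members' median log2 ratio was 0.19 (-0.00 over all genes), and 72 of 81 were above 0, where 49.8% of all genes were.

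The line differences with and without doxycycline share no library. Across the 81 members, which are not independent replicates, they had a Pearson r of 0.43 and a Spearman rho of 0.39, and across the 74 members outside chromosome 9 an r of 0.22 and a rho of 0.36. In 66 members both were positive and in 2 both were negative. The points share the libraries of each comparison, so a displacement of all members in 1 library moves them all.

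**Figure D5:**
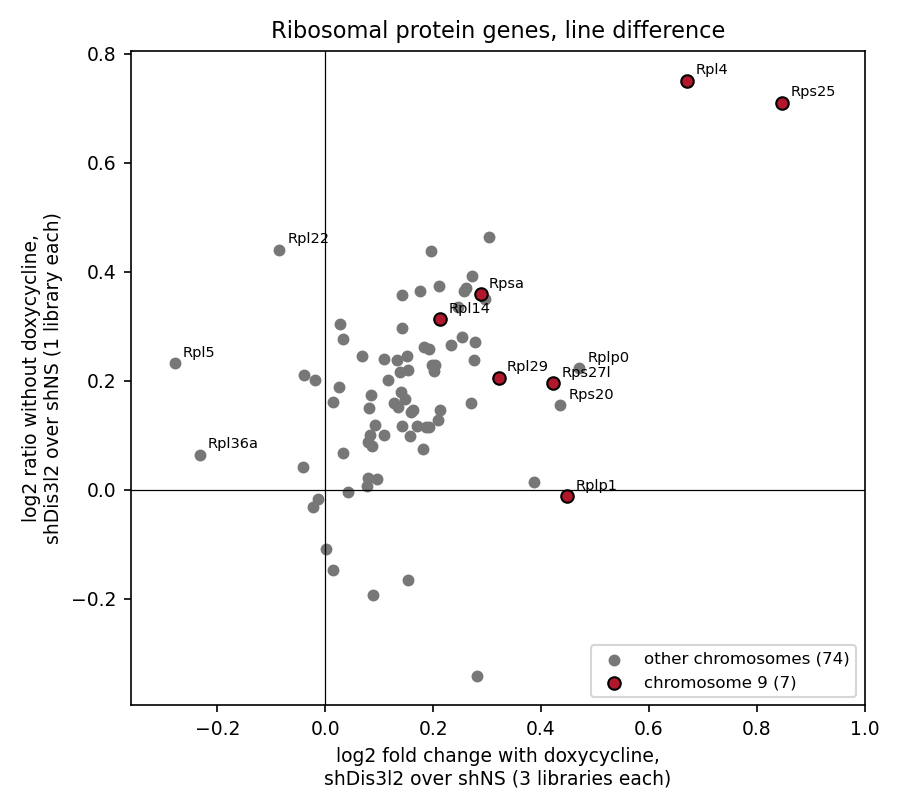
Each point is 1 of the 81 tested ribosomal protein genes, by its log2 fold change with doxycycline (horizontal axis, shDis3l2 over shNS, 3 libraries each) and its log2 ratio without doxycycline (vertical axis, 1 library each). Rps25 and Rpl4 lie in the upper right corner, and 66 of the 81 points lie above 0 on both axes.

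A fit of the line difference over all 8 libraries, with doxycycline as a covariate and chosen after the data were seen, called Rpl4 and Rps25 and no other member (3.5% of all genes were called higher and 6.21% lower). Dis3l2 itself had an edgeR adjusted p of 0.0537 in that fit. In 12 members all 4 shDis3l2 libraries lay above all 4 shNS libraries, where 8.14% of all genes did, and in 0 they lay below, where 10.2% did. The 12 were Rps6, Rps9, Rps20, Rps25, Rps27l, Rpsa, Rpl4, Rpl7a, Rpl12, Rpl14, Rplp0 and Rplp2.

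Doxycycline itself moved no ribosomal protein gene past the threshold in either line. In shDis3l2 cells edgeR called 0 of 81 members and 0 of 15250 genes (0%), and 0 members had an unadjusted p under 0.05, where 3.3% of all genes did. In shNS cells it called 0 of 81 and 0 of all genes (0%), again with 0 members at an unadjusted p under 0.05 against 4.24% of all genes. DESeq2 called 64 genes in shDis3l2 cells and 72 in shNS cells, limma-voom 0 and 1, and none of these was a member. The members' median log2 fold change (with over without doxycycline) was 0.06 in shDis3l2 cells, with 58 of 81 above 0 (50.6% of all genes), and 0.09 in shNS cells, with 65 of 81 above 0 (51.4% of all genes). In shDis3l2 cells the members ranged between -0.34 (Rpl5) and 0.36 (Rps18), and in shNS cells between -0.31 (Rpl22l1) and 0.38 (Rpl36).

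Rps25 and Rpl4 were level across doxycycline. Rps25 changed by 0.10 (log2) in shDis3l2 cells and -0.04 in shNS cells, and Rpl4 by -0.09 in shDis3l2 cells and -0.01 in shNS cells. The difference between the doxycycline effects was not past the threshold for any member (edgeR, 0 of 81, 0% of all genes, and 0 at an unadjusted p under 0.05 against 3.78% of all genes), and its median was -0.03, with 33 of 81 above 0 (49.2% of all genes). DESeq2 called 34 genes in that comparison and limma-voom 0, none of them a member. Only 1 library without doxycycline stands behind each line, and it was assumed to vary like the others. Without shDis3l2 replicate 1 the members' median doxycycline effect in shDis3l2 cells was -0.09, with 12 of 81 above 0, and the difference between lines was -0.16. Without shNS replicate 2, whose label is in doubt, edgeR called 544 genes for doxycycline in shNS cells and 121 for the difference, again with 0 members.

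Ribosomal protein mRNAs have many processed pseudogenes, copies in the genome with which the genes can share reads. The deposited estimates were not whole numbers in at least 1 library for 76 of the 81 members (93.8%), against 18.5% of all tested genes (within 0.001), as RSEM writes where it divides fragments between features. Copies named with a "-ps" suffix were taken as pseudogenes, although Rpl10-ps3 and Rpl9-ps6 are annotated as protein-coding. The annotation names 300 such copies, and 154 of them had counts. Their share of the counts of parent and copies together was 95% for Rps2, 78.6% for Rpl3, 51.2% for Rpl31, 31.2% for Rpl36a and 26.6% for Rps23. A level of these parents alone is therefore uncertain. Copies without that suffix were not counted here.

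Parents and copies were read side by side. Rps2 had 77.8, 57.8 and 60.3 CPM in shDis3l2 cells with doxycycline, against 57.8, 64.4 and 53.4 CPM in shNS cells with doxycycline. Its copy Rps2-ps10 had 1546, 1120 and 1028 CPM against 1138, 1135 and 1070 CPM in those groups. Both were highest in shDis3l2 replicate 1 and neither passed the test. Taken with their copies, Rps2 averaged 1298 ± 287 CPM in shDis3l2 cells and 1174 ± 42.9 CPM in shNS cells, and Rpl3 averaged 1296 ± 211 CPM and 1139 ± 60.5 CPM in those groups (SD, n = 3 each). Over the 63 pseudogenes tested, edgeR, DESeq2 and limma-voom called 0 in either direction and edgeR gave 2 at an unadjusted p under 0.05, both higher. Their median log2 fold change was 0.09.

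Within the bounds of 30 members, on the same strand, lie 58 annotated snoRNAs, of which 28 had counts and 3 passed the filter. Whether each lies in an intron was not checked. Counts of these short RNAs were low. Snord15b, a box C/D guide in Rps3, had 2.19, 2.68 and 1.63 CPM in shDis3l2 cells with doxycycline, against 4.09, 4.27 and 3.37 CPM in shNS cells with doxycycline (-0.85 ± 0.28 on the log2 scale, edgeR adjusted p = 0.139). Snord15a in the same gene was at -1.54 ± 0.42 (adjusted p = 0.0788), and Gm26448 in Rpsa at -0.73 ± 0.29 (adjusted p = 0.208). Of their hosts, Rps3 was at 0.15 and Rpsa at 0.29, neither past the test. Without doxycycline Snord15b had 2.29 CPM in shDis3l2 cells and 1.89 CPM in shNS cells. Members that host a snoRNA had a median of 0.16 and the others 0.15.

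Genes that make, assemble or serve the ribosome were read in shDis3l2 against shNS cells with doxycycline. There edgeR called 2.13% of all genes higher and 4.01% lower. Of all 13752 genes, DESeq2 called 644 higher and 1105 lower, and limma-voom 320 and 530. Of 29 translation factor and other TOP mRNAs edgeR and limma-voom called 0 (2 at an unadjusted edgeR p under 0.05, both higher), and DESeq2 called Eef1a1, an elongation factor, higher. Their median was -0.00, against 0.15 for the ribosomal proteins, the other class of TOP mRNAs. That gap was not seen without doxycycline, with 1 library a line and no test. There the medians were 0.17, with 24 of 29 above 0, and 0.19, with 72 of 81 above 0. Of 22 mTORC1 and TOP regulators, 13 ribosomal protein chaperones and importers and 12 tested long RNAs that host snoRNAs, 0 were called by edgeR, DESeq2 or limma-voom and 0 had an unadjusted edgeR p under 0.05. The long RNAs had a median of -0.20. Of 21 RNA polymerase I genes 0 were called by the 3 tools, with 1 at an unadjusted edgeR p under 0.05.

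Among 65 assembly factors 2 were called higher and 0 lower, a share near that of all genes called higher. They were Ddx10, a nucleolar helicase (69.9 ± 1.33 CPM in shDis3l2 cells and 44.9 ± 6.80 CPM in shNS cells with doxycycline, SD, n = 3 each, edgeR adjusted p = 0.0432), and Imp3, a U3 snoRNP protein (55.9 ± 14.4 CPM and 29.9 ± 3.54 CPM in those groups, edgeR adjusted p = 0.0433). Both lie on chromosome 9, as do Rps25 and Rpl4. Among 19 rescue and collision factors edgeR called Znfx1, a helicase, higher and none lower. Znfx1 had 188 ± 6.36 CPM in shDis3l2 cells and 117 ± 20.3 CPM in shNS cells with doxycycline (edgeR adjusted p = 0.0433). Without doxycycline, with 1 library a line and no test, these genes were higher in shDis3l2 cells too. There Ddx10 had 72.8 against 43.7 CPM, Imp3 53.1 against 26.8 CPM and Znfx1 143 against 92.1 CPM (shDis3l2 against shNS).

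The ribosomal proteins of mitochondria, the genes most like these by function, had a median of 0.02 over 78 tested genes, with Mrpl54 higher (log2 fold change 0.75, edgeR adjusted p = 0.0310) and Mrpl45 lower (-0.48, edgeR adjusted p = 0.0485). DESeq2 called 3 of the 78 higher and 1 lower, and limma-voom called Mrpl54 alone. In shDis3l2 replicate 1 their median stood at 0.20 above the mean of the 6 libraries, and in shNS replicate 1 at -0.09. In those libraries the cytoplasmic members stood at 0.36 and -0.19. The difference between the classes was not tested.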

How the data were processed

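Per the labels' protocols, DNase-treated total RNA was made into stranded libraries after rRNA depletion and sequenced as paired 150 nt reads. Per the submitters' processing notes, cutadapt, STAR 2.7 and RSEM were used with GRCm38/mm10. No source used here states the annotation release, strand setting or options. The deposited values are RSEM expected counts per gene, unnormalized. They were rounded to whole numbers, which altered 4.68 to 5.24% of values per library, and all 55450 gene IDs were matched to GENCODE M21. RSEM divides shared fragments between genes, so parents and pseudogenes can trade counts.

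edgeR 4.0.16 (R 4.3.3) was used: filterByExpr (minimum count 10), TMM factors, robust quasi-likelihood test, Benjamini-Hochberg adjustment over all tested genes, threshold 0.05. The line comparison used the 6 libraries with doxycycline. Doxycycline effects and their difference used all 8 in 4 groups. CPM are on the TMM scale of 8 libraries. SE is the log2 fold change over the root of F, and 95% intervals use it. DESeq2 1.42.0 and limma 3.58.1 (voom) were alternatives, with other scalings, filters and omissions. The line comparison of 3 against 3 libraries was tested on simulated data, with genes drawn independently and no displacement of a whole library. The fits over all 8 libraries were not. An exact permutation test of 3 against 3 cannot go below p = 0.1 (two-sided) and was not used.

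Named members were those called, the 6 highest and 6 lowest by log2 fold change, the 4 highest per kb, paralog pairs, chromosome 9 members and genes of known role. The neighbour and pseudogene counts, the motif search and a few other named genes were chosen after their values were seen. The members and gene lists were chosen with earlier results of these data known.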

Additional observations from a re-analysis of the deposited data

How the results depend on the processing

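Among the settings tried, no member changed direction while called, and in none was a member called lower. For shDis3l2 against shNS with doxycycline, edgeR called 845 genes, DESeq2 1749, the fit with a replicate block 421 and the 8-library fit with a doxycycline covariate (added after seeing the data) 1480. Leaving out 1 library each gave 203 to 1157. Called members numbered 2, but 1 with no low-count filter, 0 with the replicate block and 0 to 1 when 1 library was left out. Doxycycline calls in shDis3l2 cells numbered 0, but 64 with DESeq2. In shNS cells they numbered 0, but 72 with DESeq2, 1 with limma-voom, 2 with no filter and 0 to 544 when 1 library was left out. The difference between those effects gave 0, but 34 with DESeq2, 2 with no filter and 0 to 121 when 1 library was left out. The cause of these shifts was not tested. Same-numbered replicates of the lines did not deviate together (correlations -0.12, 0.02 and -0.01), and differently numbered ones ran between -0.09 and 0.10. With so few libraries a group, these values cannot decide whether the numbers pair the replicates. Scaling by library size alone gave a member median of 0.20, with 78 of 81 above 0 and 12 at an unadjusted p under 0.05. Rpl3l, Rpl10l, Rpl39l and most of the hosted snoRNAs had too few counts to be tested, and the cause of that was not tested. With 3 against 3 libraries, what can be said of changes under 1.5-fold is limited.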
